A study of Mus musculus with 2 samples.

Results

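Type 2 conventional dendritic cells (cDC2) are described here in leukocytes sorted from mouse tumours of MC38, a colon carcinoma cell line. Cells were taken as members when they held at least 2 UMIs (unique molecular identifiers, counted RNA molecules) of Cd209a, the gene of a DC-SIGN-family C-type lectin. They also had to hold at most 1 UMI of Xcr1 and Clec9a together, of Fscn1 and Ccr7 together and of the 3 Cd3 genes together. The C1q genes C1qa, C1qb and C1qc had to be under 0.3% of a cell's UMIs. Of 22639 kept cells, 360 passed the Cd209a limit, and the limits for type 1 (357 left), migratory (316 left), T-cell (297 left) and macrophage RNA (214 left) gave 214 members.

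The control library came from SPP1fl/fl mice, whose gene for osteopontin (Spp1) carries loxP sites. The other library came from SPP1fl/fl-Lyz2-icre mice, which share the floxed gene and also carry Lyz2-icre, a Cre driver active where the lysozyme M gene is on, mainly macrophages, monocytes and neutrophils. Live cells (CD45+7-AAD-) were sorted from the tumours and read with 10x Genomics 3-prime chemistry. Age, the number of mice behind a library and the floxed exons were not given in the sources used here, and both libraries mixed cells of both sexes. With 1 library per genotype no difference between genotypes could be tested. Intervals (95%) hold counting error alone, and leave out the spread between mice and, for ratios of UMIs, between cells. There were 115 members among 8724 kept control cells and 99 among 13915 kept Lyz2-icre cells. They held 1161416 and 652983 UMIs, with a median of 9326 per control member (1726 to 35429) and 5850 per Lyz2-icre member (1613 to 17671). The 2 libraries shared 43 barcodes, and 2 members had such a barcode.

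Conventional dendritic cells arise from bone marrow precursors under the growth factor receptor Flt3 and present antigen to T cells. The type 2 branch needs the transcription factor Irf4, carries Sirpa and Cd11b (Itgam), and is known for presenting peptides on MHC class II to CD4 T cells. The type 1 branch needs Irf8 and Batf3 and is known for cross-presentation to CD8 T cells. Dendritic cells that have taken up antigen switch on Ccr7 and Fscn1 and migrate, and the rule kept such cells out. In tumours, monocyte-derived cells can share MHC class II and C-type lectins with cDC2.

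Cd209a chose the members, so its level is a description. In CPM, the count of UMIs scaled to the same total of UMIs for each cell group, Cd209a was 814 for the control and 1074 for the Lyz2-icre members. The median member held 7 Cd209a UMIs in the control and 5 in the Lyz2-icre library, the highest 26 and 29. Just inside the limit, at 2 UMIs, lay 17 control and 16 Lyz2-icre cells, and just outside, at 1 UMI, 28 and 37 cells that met all other limits. The cells just outside carried Mgl2 at 1315 and 1307 CPM and H2-Ab1 at 9510 and 8861 CPM, against 1169 and 1617 CPM of Mgl2 and 9910 and 9284 CPM of H2-Ab1 just inside. At the C1q limit the values changed more. The 30 control and 29 Lyz2-icre cells with 0.3% to 1% of C1q UMIs had the apolipoprotein gene Apoe at 5189 and 3392 CPM, against 518 and 297 CPM over all members.

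Markers that the rule did not name matched the label in most respects. Other cells of the same libraries were gated for comparison as cDC1, migratory dendritic cells, monocytes, C1q macrophages, T cells and NK cells. Mgl2 (CD301b, a galactose-binding lectin of dermal and tumour cDC2) was at 1634 CPM among control members and 1682 CPM among Lyz2-icre members. In C1q macrophages, the next highest gate, it stood at 514 and 755 CPM. Clec10a (CD301a, its neighbour and close paralog) stood at 154 and 233 CPM in members and at most 32 CPM in any other gate shown. Because Mgl2 and Clec10a are near copies, reads shared by both could have been split between them.

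Irf4 stood at 93.0 and 73.5 CPM in members, against 7.06 and 6.07 CPM in the cDC1 gate. Irf8, the type 1 factor, was reversed, at 145 and 178 CPM in members and 1814 and 1795 CPM in cDC1. Zbtb46, a factor shared by conventional dendritic cells, counted 38.8 and 49.0 CPM in members and at most 1.95 CPM in monocytes. Flt3 was detected at 33.6 and 24.5 CPM, lower than the 101 and 85.0 CPM of cDC1. Migratory cells held more Zbtb46 than members, at 80.5 and 86.7 CPM. MHC class II gene H2-Ab1 reached 9867 and 9859 CPM, level with cDC1 (8680 and 8716 CPM) and above monocytes (2414 and 4394 CPM). Of the markers listed for cDC2, Clec4a4 had 0 UMIs in both libraries and Dtx4 had 2 and 1 UMIs.

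**Figure D1:**
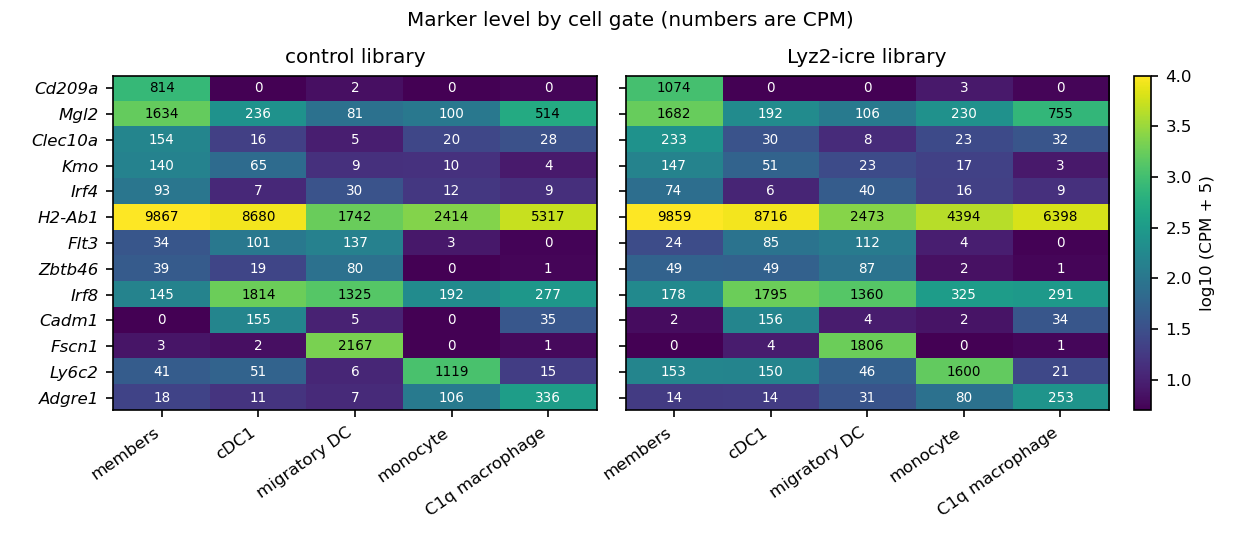
Level of 13 marker genes in members and 4 compared gates, in the control library (left) and the Lyz2-icre library (right). Numbers are CPM and colour is log10 of CPM plus 5. Cd209a, which defined the members, Mgl2, Clec10a, Kmo and Irf4 are highest in members, while Cadm1 and Irf8 are highest in cDC1, Fscn1 in migratory cells, Ly6c2 in monocytes and Adgre1 in macrophages.

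Markers of other leukocytes ranged from near 0 to clearly present. The macrophage gene Adgre1 (F4/80) stood at 18.1 and 13.8 CPM in members against 336 and 253 CPM in C1q macrophages. The 11 macrophage markers outside the rule summed to 1345 and 1176 CPM, and 114 of 115 control and 85 of 99 Lyz2-icre members held at least 3 of their UMIs. The 10 plasmacytoid markers, which include the interferon gene Bst2, summed to 447 and 599 CPM. Over 10 neutrophil markers the members summed to 41.3 and 9.19 CPM, and over 10 mast-cell or basophil markers to 16.4 and 3.06 CPM. Monocyte markers (10 genes) summed to 1304 and 1590 CPM. Among them Ly6c2, the monocyte surface protein gene, had 41.3 CPM among control and 153 CPM among Lyz2-icre members, against 1119 and 1600 CPM in the monocyte gate. Its UMIs lay in 8 control and 16 Lyz2-icre members. This marker therefore moved with genotype inside the gate. Without these cells 221 genes were at least 1.5-fold higher and 461 lower in Lyz2-icre members, against 254 and 399 with them. The medians of the interferon and MHC class I lists are given below without them too, and their part in other single genes, such as Ccl2 and Cxcl9, was not tested.

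A few members carried RNA of other lineages. In the control library 1 cell held 162 of 169 Gzma UMIs and 1 cell held 847 of 865 Gzmd UMIs, both granzyme genes of cytotoxic lymphocytes. In the Lyz2-icre library 1 cell held 214 of 252 Col3a1 (collagen) UMIs. At least 3 UMIs of the whole NK list were held by 22 control and 23 Lyz2-icre members, of the T list by 21 and 8, of the fibroblast or tumour list by 13 and 4 and of the plasmacytoid list by 61 and 52. With Klrk1, Il7r and Epcam taken out of these lists, and only Siglech, Ly6d, Ccr9 and Cox6a2 kept for plasmacytoid cells, 4 control and 6 Lyz2-icre members held 3 UMIs of any list. That narrower set was chosen after the values were seen. The genes taken out, and Ighm of B cells, were spread over many members. Klrk1 (NKG2D) was found in 55 control and 49 Lyz2-icre members, Il7r in 59 and 33, Ighm in 48 and 31, and the adhesion gene Epcam in 37 and 25. After every cell was drawn down to 2000 UMIs, Epcam was detected in 10.5% of control and 12.8% of Lyz2-icre members, against 2.77% and 2.37% of T cells. Klrk1 was detected in 22.8% and 24.5% of members at that depth, in 26.3% and 20.4% of cDC1 and in 37.8% and 40.9% of T cells.

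Among 2600 genes at 50 CPM or more in both libraries, 154 were higher in members than in any compared gate of the same library, 15 at least 2-fold and 3 at least 5-fold. Gfra2, a GDNF-family coreceptor known from neurons, led this ranking. Its level was 120 CPM among control and 90.4 CPM among Lyz2-icre members, against 7.32 and 3.85 CPM in migratory cells, the next gate. Ctnnd2 (delta-catenin) followed with 80.1 and 59.7 CPM, at least 6.61-fold over the next gate, and Clec10a came next.

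The other genes of this ranking fell into recognisable roles. Cdh1 (E-cadherin) stood at 201 and 213 CPM, 3.54-fold and 3.68-fold over monocytes. H2-DMb2 and H2-Oa encode chains of the chaperones that edit the peptide load of MHC class II, and stood at 369 and 371 CPM and at 129 and 142 CPM. Bcl11a, a factor of dendritic cell development, stood at 71.5 and 59.7 CPM. Kmo, the kynurenine monooxygenase of tryptophan breakdown, stood at 140 and 147 CPM against 65.3 and 50.6 CPM in cDC1. Ear2, an eosinophil-type ribonuclease gene whose paralogs could share its reads, stood at 151 and 142 CPM. Ank, Slc30a4, Clec4b1, Mgl2, Rtn1 and Hivep2 completed the list. These genes describe the gate and were not tested.

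Members differed among themselves. At 2000 UMIs per cell, 114 control and 94 Lyz2-icre members could be compared, and 2412 genes had a UMI in at least 10 members of both libraries. The Fano factor (variance over mean, near 1 for counting alone) had a median of 1.06 and 1.05 over these genes. Cst3 (cystatin C) reached 12.5 and 12.6. Ccl17, a chemokine for Ccr4-bearing T cells, reached 6.39 and 7.92. It was found in 69 of 114 control and 54 of 94 Lyz2-icre members, at up to 26 and 30 UMIs in a cell. Plac8 (6.04 and 6.66) and Ifitm1 (5.49 and 10.9), both also known from monocytes, were found in 24 and 26 and in 46 and 38 members. Il1b, the interleukin 1 beta gene, had Fano factors of 5.90 and 5.77 and was found in 85 and 70 members. Tmsb4x, Malat1, Actb, Cxcl2, Fth1, Cd74, Cxcl9, Rn18s-rs5, Irf8 and Ccl4 made up the rest of the 15 most variable genes.

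Mitosis genes split the members. Of 114 control members 25 held at least 3 UMIs of 9 mitosis genes such as Mki67 and Top2a (21.9%, 14.7% to 30.7%), and of 94 Lyz2-icre members 17 (18.1%, 10.9% to 27.4%). The median member held 0 such UMIs and the highest 17 in each library. In the migratory gate 0 of 131 control and 4 of 92 Lyz2-icre cells reached 3 UMIs, and in the cDC1 gate 13 of 38 and 11 of 49.

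The share of members among kept cells was lower in the Lyz2-icre library. Members made up 1.32% of control cells (1.09% to 1.58%) and 0.712% of Lyz2-icre cells (0.579% to 0.866%), a ratio of 0.540 (0.408 to 0.712). Control cells were deeper, with a median of 9380 UMIs against 6374, and the rule counts UMIs. With every cell drawn down to 2000 UMIs first, 56 and 58 cells met the rule and the ratio was 0.689 (0.469 to 1.013). The ratio differed with the denominator. C1q macrophages made up 44.6% of control and 49.5% of Lyz2-icre cells, and of cells with C1q under 0.3% the members were 4.36% and 3.27%, a ratio of 0.750 (0.568 to 0.990). Of members, cDC1 and migratory cells together, members were 39.9% in control and 39.8% in Lyz2-icre (ratio 0.996, 0.753 to 1.314). All 3 dendritic gates were thus lower as shares of kept cells. The ratio was 0.788 for cDC1 (0.507 to 1.232), an interval that includes equal shares, and 0.473 for migratory cells (0.361 to 0.616). Lower shares were not confined to dendritic gates. T cells (ratio 0.637), NK cells (0.609) and neutrophils (0.216) were lower too, while monocytes (1.385) and C1q macrophages (1.11) were higher.

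The direction also differed by sex of the cells. Among cells with Xist and no Y-linked UMI the ratio was 0.467 (0.332 to 0.653) from 89 and 62 members. Among cells with Y-linked UMIs it was 1.56 (0.637 to 4.17) from 8 and 17 members. The difference between the sexes was not tested.

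**Figure D2:**
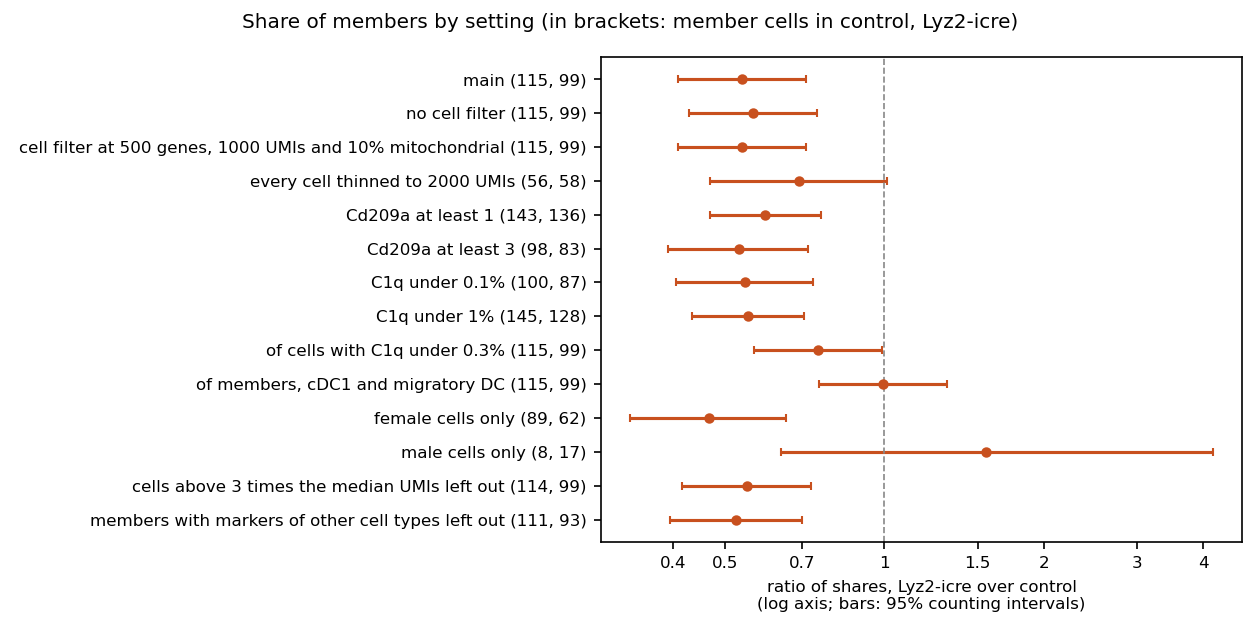
Ratio of the share of members, Lyz2-icre over control, under each setting on a log axis, with 95% counting intervals and the number of member cells in control and Lyz2-icre in brackets. The ratio is 0.540 for all kept cells, 0.996 against all gated dendritic cells and 1.56 in male cells, where 8 and 17 members were counted.

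Expression was compared from the summed UMIs of all members of a library. Log2 ratios are Lyz2-icre over control with 5 CPM added to both. Of 5463 genes at 20 CPM and 20 UMIs or more in the higher library, 254 (4.65%) were at least 1.5-fold higher and 399 (7.3%) at least 1.5-fold lower in Lyz2-icre members, and the median log2 ratio was -0.03. These shares are the background for the counts of each gene group below. No gene or group was tested, since each genotype was 1 library. The mitochondrial ribosomal RNA genes mt-Rnr1 and mt-Rnr2 were lower in Lyz2-icre members (2136 and 783 CPM, 4809 and 1423 CPM) and in each compared gate, macrophages included (2358 and 794 CPM for mt-Rnr1).

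Spp1 and Lyz2, which bear on the genotype, were both lower. Spp1 counted 453 UMIs in control (390 CPM) and 17 in Lyz2-icre members (26.0 CPM). Of the control UMIs 309 (68.2%) lay in 3 cells, which held 173, 101 and 35. At 2000 UMIs per cell 16.7% of control and 3.19% of Lyz2-icre members held a Spp1 UMI, against 17.9% and 10.9% of T cells, whose median depths before thinning were 4592 and 3091 UMIs. The member shares were at or below those of T cells, while in CPM control members stood at 390 and control T cells at 362. T cells are no clean measure of free RNA here, since in the Lyz2-icre library T and NK cells stood at 217 and 636 CPM of Spp1 and C1q macrophages at 2.56 CPM. Whether the UMIs in members came from the members or from free RNA was not tested. Without thinning, 36 of 115 and 11 of 99 members held one. Lyz2 stood at 1446 and 346 CPM in members and 1382 and 719 CPM in T cells. Its thinned shares were 62.3% and 21.3% in members and 65.5% and 30.2% in T cells, again at or below the shares of T cells. Lyz2 in macrophages stood at 11874 and 4239 CPM. Cd44 and the integrin genes Itga4, Itgb1, Itgav and Itga5, which encode osteopontin receptors, had log2 ratios between -0.33 and 0.19. The osteopontin list (10 genes) had 6 tested, 0 higher and 1 lower, and that gene was Spp1.

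The genes that identify cDC2 stood at similar levels in both genotypes. Of 12 identity genes outside the rule 9 were tested, and 0 were higher and 0 lower by 1.5-fold. Mgl2 had a log2 ratio of 0.04 (ratio 0.954 to 1.109) and Kmo of 0.07 (0.810 to 1.365). Clec10a was at 0.58 (1.21 to 1.89), with 0.20 in female and 2.70 in male cells. Itgam was at -0.57 (0.526 to 0.836). Of 24 transcription factors 20 were tested, with 1 higher and 0 lower. The higher one was Bcl6 at 27.6 and 44.4 CPM (ratio 0.941 to 2.75), and Notch2, the receptor gene that a cDC2 subset needs, stood at 64.6 and 98.0 CPM (1.07 to 2.15). Irf4 was at -0.32 and Relb at -0.48, with intervals that include a ratio of 1.

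MHC class II presentation genes stood near equal in the genotypes. Of 15 genes 14 were tested, 0 were higher and 0 lower, and the median log2 ratio was 0.00. H2-Ab1 was at 0.00 (ratio 0.969 to 1.03), Cd74, the invariant chain, at -0.08, H2-Aa at -0.12 and H2-DMa at -0.20. Ifi30, a lysosomal thiol reductase, was highest at 0.31 (1.14 to 1.34), and Ciita, the class II transactivator, was at 0.19 (0.945 to 1.39). In the monocyte gate 5 of 12 tested genes of this list were higher, with a median of 0.57.

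Most MHC class I presentation genes had a ratio above 0 on the log2 scale. All 20 genes were tested, 2 were higher and 0 lower, 15 had a log2 ratio above 0, and the median was 0.18. The higher pair was Nlrc5, the class I transactivator, at 23.3 and 44.4 CPM, and H2-T22, a nonclassical class I gene, at 47.4 and 85.8 CPM. The peptide transporter gene Tap2 was at 0.49 and the immunoproteasome subunit Psmb8 at 0.31. H2-K1 was at 0.00. Paralogous class I genes can share reads, so single H2 genes are uncertain. Without the members that held a Ly6c2 UMI the median was 0.09. In the monocyte gate 5 of 20 tested genes of this list were higher, with a median of 0.34. The median was 0.165 in C1q macrophages and -0.08 in both cDC1 and migratory cells.

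Costimulation, maturation and receptors were mixed. Of 14 tested costimulation and checkpoint ligands 2 were higher and 1 lower. Pdcd1lg2 (PD-L2) counted 16.4 and 38.3 CPM (ratio 1.24 to 4.50) and Cd40 37.9 and 61.3 CPM (1.03 to 2.54). Tnfrsf1b, a TNF receptor gene, counted 56.0 and 26.0 CPM. Cd80 and Cd86 had log2 ratios of -0.24 and -0.26, and Cd274 (PD-L1) of 0.33, with intervals that include a ratio of 1. Of 17 tested maturation genes 2 were higher and 0 lower, with a median of -0.01. Of 20 tested chemokine and cytokine receptors 0 were higher and 0 lower, with a median of -0.23. Ifngr1 was lowest at -0.47 (0.588 to 0.869), and Ccr2, a receptor for recruitment from blood, was at 0.18.

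Innate sensing receptors gave 0 higher and 2 lower of 12 tested. Tlr2, which senses bacterial lipoproteins, stood at 152 and 84.2 CPM (0.401 to 0.752), and Clec4e (Mincle) at 38.8 and 15.3 CPM (0.178 to 0.795). Tlr2 was lower also in every other gate but neutrophils (193 and 216 CPM), and Clec4e in every one but cDC1 (22.9 and 44.5 CPM). Clec7a, the beta-glucan receptor Dectin-1, was at 627 and 824 CPM (1.17 to 1.47). Mrc1, the mannose receptor gene, stood at 233 and 181 CPM (0.621 to 0.969).

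Chemokines moved in both directions, CC chemokines included. Of 17 tested 6 were higher and 4 lower. Cxcl9 and Cxcl10, ligands of Cxcr3 on T and NK cells, stood at 187 and 389 CPM and at 161 and 507 CPM. The log2 ratio of Cxcl9 was 1.04 in members, 1.45 in female and -0.71 in male members. In other gates it was 1.49 in migratory cells, 1.34 in monocytes, 1.09 in T cells and 0.935 in NK cells. Neutrophils stood at 0.60, C1q macrophages at 0.30 and cDC1 at -0.21. For Cxcl9, 3 control members held 85 of 217 UMIs and 3 Lyz2-icre members 108 of 254. Cxcl10 UMIs lay in 30 control and 31 Lyz2-icre members, and 3 control cells held 133 of 187 of them. Ccl2, a monocyte attractant, stood at 115 and 227 CPM (1.55 to 2.52). Its UMIs lay in 57 control and 30 Lyz2-icre members, so fewer Lyz2-icre members held it. In the Lyz2-icre library 3 cells held 68 of 148 Ccl2 UMIs, and in the control 3 held 52 of 133. The neutrophil attractants Cxcl2 (1511 and 927 CPM) and Cxcl3 (41.3 and 6.13 CPM) and the CC chemokines Ccl3 (155 and 70.5 CPM) and Ccl9 (278 and 170 CPM) were lower. Cxcl3 rested on 1 control cell with 44 of 48 UMIs, and Ccl3 on 1 with 102 of 180. Ccl3 was lower too in monocytes (591.5 and 268 CPM) and C1q macrophages (349 and 159 CPM), but not in cDC1, migratory or T cells. Cxcl3 was lower too in monocytes (587 and 63.2 CPM) and T cells (91.1 and 15.1 CPM), but not in migratory cells or neutrophils. Of the higher genes, Ccl5 (10 and 113 UMIs) lay in few cells, 3 of which held 107 of the Lyz2-icre UMIs, and Ccl24 (1 and 26 UMIs) had 24 of its UMIs in 3 cells. Ccl12 completed the 6 at 19.8 and 33.7 CPM. Ccl17 and Ccl22, the Ccr4 ligands for which cDC2 are known, were at 0.25 and 0.24.

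Cytokine genes gave 2 higher and 1 lower of 8 tested. Osm (oncostatin M) stood at 131 and 227 CPM (1.37 to 2.19), spread over 59 and 54 members. Il1rn, the interleukin 1 receptor antagonist, stood at 31.0 and 53.6 CPM. Il1a stood at 34.4 and 13.8 CPM, and Il1b, by far the most abundant of the list, at 2629 and 2554 CPM (ratio 0.915 to 1.03). Il1a was lower in every compared gate too, as in monocytes (227 and 53.0 CPM). Il12b had 11 and 10 UMIs, in 3 members of each library. Il23a and Il6 had at most 5 UMIs in a library.

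Type I interferon response genes were higher in Lyz2-icre members, with the highest median of the 17 gene groups compared. Type I interferons act through the receptor chains Ifnar1 and Ifnar2, and their signal then switches on antiviral genes through a promoter element with paired GAAA repeats. Of 20 genes of this response 12 were tested, 8 were at least 1.5-fold higher and 0 lower in Lyz2-icre members, beside the 4.65% of all tested genes that were higher. The median log2 ratio was 1.04. Since a gene could enter through the library where it was high, the list was also taken whole. Over the 20 detected genes the median was 0.78, and over the 14 chosen by their mean level it was 0.78.

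Isg15, a ubiquitin-like antiviral protein gene, counted 59.4 CPM for control and 161 CPM for Lyz2-icre members (ratio 1.98 to 3.72). Ifit1, which binds viral RNA caps, stood at 4.31 and 50.5 CPM (4.55 to 38.5). Rsad2 (viperin) stood at 10.3 and 58.2 CPM (2.88 to 11.8). Each interval lay above equal levels, but it treats UMIs as independent and leaves out the spread between cells and between mice. Few cells held many of these UMIs, as given below.

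Irf7, the factor that amplifies the response, stood at 22.4 and 62.8 CPM (1.68 to 4.78). Ifi205, of the interferon-inducible DNA-sensing family, stood at 20.7 and 84.2 CPM (2.48 to 6.88), and Mx1 at 12.1 and 36.8 CPM (1.51 to 6.38). Trim30a and Oasl2 were the other 2 of the 8, both at 0.78. The remaining 4 tested genes were also above 0, with Bst2 (tetherin) at 0.58, Ifi27l2a at 0.56, Ifih1 at 0.50 and Xaf1 at 0.49. Genes that fell short of the level filter had few UMIs, such as Ifit3 with 6 and 18, Usp18 with 16 and 16 and Cmpk2 with 8 and 6.

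Single cells carried part of the UMIs. For Ifit1, 3 Lyz2-icre cells held 20 of 33 UMIs, for Rsad2 26 of 38 and for Isg15 36 of 105. With the cell holding most UMIs of each gene left out in each library, the list median was 1.05. In female cells it was 1.10 and in male cells, of which the control had 8, it was 1.07. Single genes differed, with Rsad2, Irf7 and Ifih1 among those lower in male cells and Xaf1 at -0.08 in female cells. Without members that held a Ly6c2 UMI the median was 0.95.

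The promoters of the 4 tested genes of the list with the highest log2 ratios are shown to let the element be seen in them. Capitals mark each match to the core of the interferon-stimulated response element, searched as GAAA, any 2 bases and GAAA, on both strands with overlaps allowed. They are RefSeq windows of GRCm38.p6, which start 250 bases before and end 50 bases after the gene start. The stretches lie before it and read in the direction of the gene, 5′ to 3′. Ifit1 lies at chr19:34640755-34640843 on the plus strand, Rsad2 at chr12:26456533-26456602, Ifi205 at chr1:174031850-174031919 and Isg15 at chr4:156200845-156200926, these 3 on the minus strand.
Ifit1: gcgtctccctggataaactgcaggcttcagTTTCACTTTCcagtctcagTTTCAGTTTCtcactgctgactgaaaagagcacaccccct
Rsad2: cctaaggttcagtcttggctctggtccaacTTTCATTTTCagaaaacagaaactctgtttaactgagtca
Ifi205: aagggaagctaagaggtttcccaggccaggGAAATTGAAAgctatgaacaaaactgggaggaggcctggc
Isg15: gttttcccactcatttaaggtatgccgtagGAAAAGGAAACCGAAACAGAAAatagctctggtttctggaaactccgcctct

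In Ifit1 the 2 matches read on the opposite strand and begin 104 and 85 bases before the gene start, and the single match of Rsad2, also on the opposite strand, begins 120 bases before it. Ifi205 has its match 134 bases before the start, and a further one after it that is not printed. In Isg15 3 matches overlap, the farthest 78 bases and the nearest 66 bases before the start. Counted on both strands of the whole window, 10 of the 16 list genes with a window (62.5%) held a match, as did 3.99% of all 27025 genes with one. Of the tested genes with a window, Irf7, Oasl2 and Xaf1 had none there. A match describes the letters and not a bound site.

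Read per cell, more Lyz2-icre members held several UMIs of the list. At 2000 UMIs per cell the control members held 0 to 13 UMIs of the 20 genes, with a median of 2, and the Lyz2-icre members 0 to 28, with a median of 3. At least 3 UMIs were held by 36 of 114 control members (31.6%, 23.2% to 41.0%) and 48 of 94 Lyz2-icre members (51.1%, 40.5% to 61.5%). At least 10 were held by 4 and 12. Isg15 was detected in 7.02% and 24.5% of thinned members (3.08% to 13.4% and 16.2% to 34.4%), against 9.61% and 7.31% of T cells, which can also express it, and 15.3% and 26.1% of migratory cells. Ly6a (Sca-1), another interferon-induced gene, was detected in 22.8% and 48.9% of members and in 40.1% and 48.6% of T cells.

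Members with at least 5 UMIs of the list numbered 14 in control and 30 in Lyz2-icre. Their median depth was 7584 and 4998 UMIs, below the 9531 and 6528 of other members, and they held a median of 5 and 5.5 Cd209a UMIs against 7 and 5.5. Of these 14 and 30 cells, 4 and 7 held a Ly6c2 UMI, out of 4 and 12 thinned members that did. The part of members that held a Ly6c2 UMI in the difference, beyond the value without them, was not tested.

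**Figure D3:**
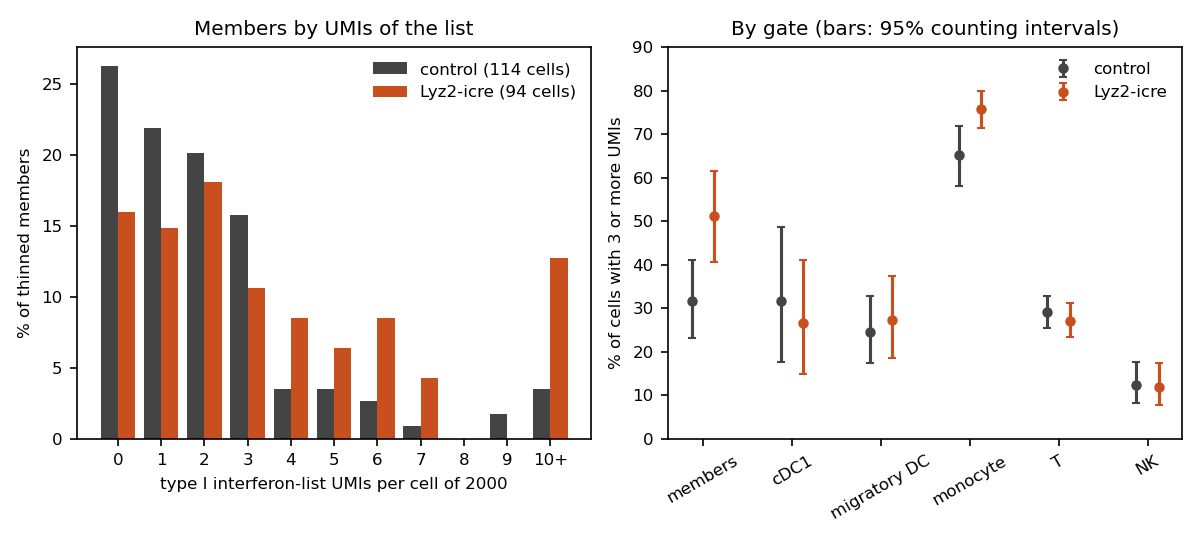
Left, share of thinned members (%) by the number of type I interferon-list UMIs among 2000 UMIs per cell, for 114 control and 94 Lyz2-icre members. Right, share of cells (%) with 3 or more such UMIs by gate, with 95% counting intervals. Members stand at 31.6% and 51.1%, with intervals that overlap only at their ends (up to 41.0% and from 40.5%), and monocytes at 65.1% and 75.7%, also with intervals that overlap only at their ends (up to 71.8% and from 71.3%). In cDC1, migratory, T and NK cells they overlap widely.

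The same 12 genes were read in the other gates. Their summed level was 942 CPM in control members and 1692 CPM in Lyz2-icre members, and in cDC1 it was 935 and 1024 CPM. Monocytes were higher in both libraries, at 2731 and 3200.5 CPM. The median log2 ratio was 1.04 in members, 0.08 in cDC1, 0.29 in migratory cells, 0.22 in monocytes, 0.03 in C1q macrophages, 0.12 in T cells and 0.07 in NK cells. At least 1.5-fold higher were 8 genes in members, 2 in cDC1, 3 in migratory cells, 2 in monocytes and 0 in macrophages, and 1 was lower in cDC1 and 2 in migratory cells. The 2 higher in cDC1 were Rsad2 (log2 ratio 2.68) and Isg15 (0.87). As shares of cells with at least 3 UMIs, cDC1 stood at 31.6% and 26.5%, migratory cells at 24.4% and 27.2% and monocytes at 65.1% (58.0% to 71.8%) and 75.7% (71.3% to 79.8%). The genes were filtered on their level in members, and the difference between gates was not tested.

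**Figure D4:**
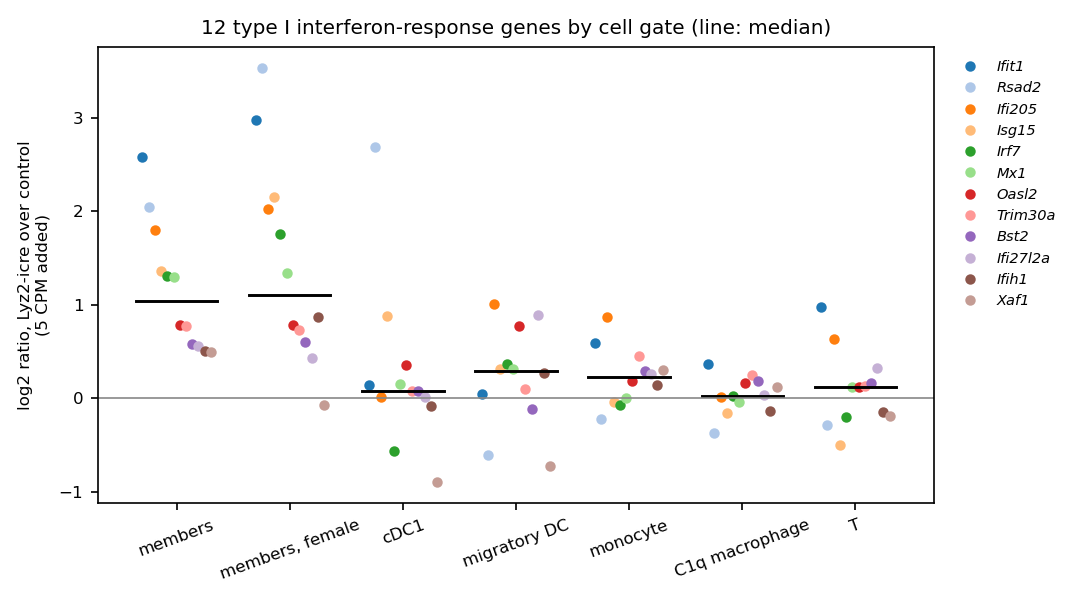
Log2 ratio (Lyz2-icre over control, 5 CPM added) of 12 type I interferon-response genes in members, in female members and in 5 other gates. The 12 genes were filtered on their level in members only. Points are genes and lines are medians, 1.04 in members, 1.10 in female members and 0.03 in C1q macrophages.

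The receptor genes were close between the genotypes. Ifnar1 stood at 87.8 and 76.6 CPM and Ifnar2 at 78.4 and 61.3 CPM, with intervals that include a ratio of 1. Ifnb1 counted 1 and 0 UMIs.

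Interferon-gamma response genes overlap this list and had a lower median. Of 18 genes 15 were tested, 4 were higher and 0 lower, and the median was 0.44. Cxcl9, Cxcl10, Irf1 (95.6 and 158 CPM) and Gbp5 (31.9 and 52.1 CPM) were the 4. The median was 0.81 in female cells and -0.42 in male cells, so the direction was not the same in both sexes. Without members holding a Ly6c2 UMI it was 0.29. In the monocyte gate 8 of 15 tested genes of this list were higher, with a median of 0.66. The median was 0.21 in migratory cells, 0.22 in C1q macrophages and -0.52 in cDC1.

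Of 19 tested cell-cycle genes 2 were higher and 5 lower. The lower ones were all among the 9 mitosis genes counted per cell above, as was Cdk1, which was higher. Cenpf, a kinetochore protein gene, stood at 109 and 47.5 CPM (0.285 to 0.652), Ube2c at 170 and 82.7 CPM, Ccnb2 at 76.6 and 41.4 CPM, Mki67 at 247 and 162 CPM and Ccna2 at 50.8 and 32.2 CPM (0.365 to 1.06). The 2 higher were Rrm2 (25.0 and 59.7 CPM), which supplies nucleotides for replication, and Cdk1 (33.6 and 58.2 CPM), and the replication licensing genes Mcm2, Mcm3, Mcm5 and Mcm6 had log2 ratios between 0.06 and 0.47. The list median was 0.03, and the share of members with at least 3 UMIs of mitosis genes had overlapping intervals. Glycolysis and hypoxia genes gave 3 higher (Ero1a, Bnip3 and Pdk1) and 1 lower (Pfkl) of 20, with a median of 0.18. In female cells Ero1a was at 0.15 and in male cells at 0.94.

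Chaperone, immediate early and lysosomal lists had medians near 0. Immediate early and NF-kappaB feedback genes gave 0 higher and 1 lower (Fosb, 1153 and 726 CPM) of 21, with a median of 0.00, and heat-shock genes 0 higher and 1 lower (Hspa1b) of 11. Lysosomal genes gave 1 higher (Ctsl) and 1 lower (Lyz2) of 13.

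Among the 12 genes named for the highest log2 ratios, 7 are known as interferon-induced. They were Ifit1 and Ifi205 with the values above, Ifi211 (12.1 and 58.2 CPM), Ifi209 (31.0 and 75.0 CPM), Zbp1, a nucleic acid sensor (38.8 and 133 CPM, found in 30 and 44 members), Cxcl10, and Ly6a (188 and 508 CPM, in 41 and 61 members). In C1q macrophages Ly6a stood at 260 and 500 CPM, so it was higher there too. Without members that held a Ly6c2 UMI the log2 ratio of Ly6a was 1.59 and that of Cxcl10 1.46. Others of the 12 were Bnip3, a mitophagy receptor gene (20.7 and 58.2 CPM), Fdft1, the squalene synthase gene (23.3 and 59.7 CPM), Zdhhc3 (23.3 and 56.7 CPM) and the noncoding Snhg1 (87.0 and 195 CPM).

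The 12 genes named for the lowest log2 ratios included 3 mitosis genes. Srek1, a splicing regulator, stood at 58.6 and 16.9 CPM (0.137 to 0.548). Prkcb, protein kinase C beta, stood at 54.2 and 16.9 CPM, and Flrt3, a cell-surface guidance ligand, at 124 and 42.9 CPM. Siglecg, an inhibitory sialic acid receptor, stood at 125 and 59.7 CPM in members and at 28.2 and 8.10 CPM in cDC1, where it was lower too. It was found in 68 control and 30 Lyz2-icre members. Adgre5 (CD97) stood at 97.3 and 44.4 CPM, and in macrophages at 90.6 and 52.7 CPM. Knl1, Cenpf and Ube2c act in mitosis. Fnbp1l, Vti1b, Klf9 and Afdn completed the list, with log2 ratios from -1.32 to -0.98.

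**Figure D5:**
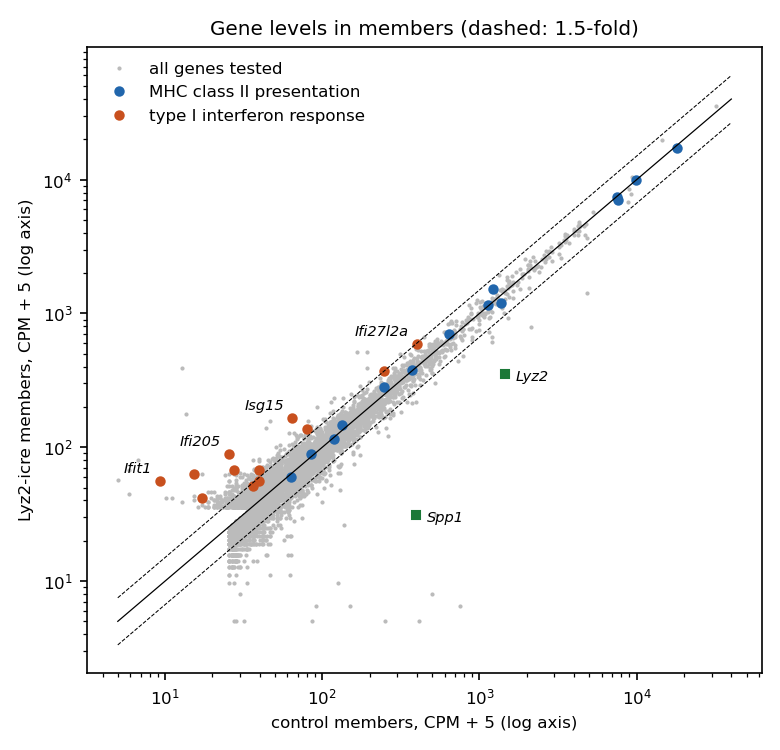
Level of 5463 genes in control members (x axis) and Lyz2-icre members (y axis), in CPM plus 5 on log axes, with dashed lines at 1.5-fold. The 12 type I interferon genes lie above the diagonal, the 14 MHC class II genes lie near it, and Spp1 and Lyz2 lie below.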

How the data were processed

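The deposited values were raw UMI counts per gene and barcode for called cells, made by the authors with Cell Ranger 8.0.1 per the file headers, against mm10 per the submitters' processing notes, which also name bcl2fastq 5.0.1. Without empty droplets, free RNA could not be removed. Kept cells had 300 or more genes, 500 or more UMIs and a mitochondrial share of 15% or less. UMIs of members were summed per library and scaled to CPM. Ratios have exact conditional binomial and shares Clopper-Pearson intervals. A gene entered the comparison from 20 CPM and 20 UMIs in whichever library was higher. The text names 12 genes from each end of the log2 ratios, at 50 CPM and 30 UMIs, in 10% of members, at least 1.5-fold, with the same sign in both sexes and at 0.2 or more of the highest gate. The 15 genes with the highest fold over other gates, and the 15 with the highest Fano factor, were also named, as the lower of both libraries. With 1 library per genotype no test was made. Comparison gates, set by UMIs of marker genes after cells were seen, serve only for values side by side. No doublet caller was run; deep cells and cells with foreign markers were left out as alternatives. The formulas for ratios and their intervals were checked on simulated counts that held no spread between cells or mice. Members and lists were chosen with earlier results of these data known. Analyses used Python 3.11.15, numpy 2.4.6 and scipy 1.17.1. Some genes that these rules name are not reported here.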

Additional observations from a re-analysis of the deposited data

Results flagged for a closer look

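Cxcl10 had a log2 ratio of 1.62 in members (161 and 507 CPM) and of -0.80 in cDC1 (127 and 70.9 CPM). It was picked out because the direction was opposite in the 2 dendritic gates. The cDC1 gates held 39 and 49 cells, 3 control members held 133 of the 187 control Cxcl10 UMIs, and the difference was not tested.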

How the results depend on the processing

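The ratio of shares was 0.540 in all kept cells, 0.750 of cells with C1q under 0.3%, 0.996 of gated dendritic cells and 1.56 in male cells, the only setting run that reversed it. The counts of 254 higher and 399 lower genes were 113 and 162 with 20 CPM added, 1198 and 1202 with no filter on low genes, 164 and 209 with members thinned to 2000 UMIs (1921 genes tested), and 150 and 130 in male cells (880 tested). Median-of-ratios scaling gave 206 and 453 and moved the median of all genes to -0.07. Of the single genes run under these settings, Rsad2 (-1.80) and Irf7 (-0.46) reversed in male cells, of which the control held 8. Of the other values of single genes, 382 stayed within the counting interval or spread of the main value and 50 moved beyond it. Of list medians 234 stayed within and 4 moved, all in male cells, to 0.45 for transcription factors, -0.42 for interferon-gamma genes, -0.73 for osteopontin genes and -0.38 for immediate early genes. The type I interferon median ran from 0.75 (20 CPM added) to 1.14 (1 CPM added). No paired analysis was possible because each genotype was 1 library. Depth limits genes under 20 UMIs.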
